A study of Mus musculus with 8 samples.

Results

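Apical progenitors at the S-phase angle were the nuclei of the authors' cluster 4 whose deposited cell cycle angle lay at 0.5 π radians or more and under π. The rule selected 5734 nuclei, out of 10948 in cluster 4 and 67319 in all. They came from the dorsal telencephalon, the embryonic forebrain region that forms the cerebral cortex, of C57BL/6J mice at embryonic day E15.5, whose nuclei were isolated from flash frozen tissue and profiled singly with a droplet 3′ method. The 4 wildtype samples gave 725, 543, 394 and 580 of these nuclei in replicates 1 to 4, and the 4 Pantr2 knockout samples, which lack a long noncoding RNA gene, gave 1052, 1227, 695 and 518. The labels name no other allele and no treatment, and they do not say how many embryos or litters stand behind a sample, so p-values measure only the spread between these samples. The angle is a score named after tricycle, a method that places each nucleus on a circle from its expression of cell cycle genes. Both the angle and the cluster were therefore computed from expression in the same nuclei.

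Apical progenitors, or radial glia, are the neural stem cells that line the ventricle of the developing cortex, and their nuclei move away from the ventricular surface for DNA replication and return to it for mitosis. Replication origins are licensed in G1 by loading of the Mcm helicase ring, and the ring is switched on in S phase by Cdc45 and the GINS complex, which together form the CMG helicase. E2F transcription factors switch on replication genes at the G1 to S boundary, whereas mitotic genes come on later through a promoter element called CHR. Late in cortical neurogenesis apical progenitors begin to switch from making neurons to making astrocytes.

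The 8 samples held 20446698 to 34083796 UMIs (unique molecular identifiers, 1 per captured transcript), of which 1402947 to 4129622 came from the nuclei at the S-phase angle. The median nucleus of this group held 2866 to 3366.5 UMIs in wildtype and 3048 to 3226.5 in knockout. A knockout minus wildtype difference of 78 UMIs was smaller than the spread between samples (3056 ± 226 against 3134 ± 79.9, SD, n = 4 per group; exact two-sided permutation p = 0.571). The counts of Pantr2 were not analysed here, and genotypes are those of the labels. Pairs of libraries shared 8 to 30 cell barcodes, and only 3 such matches in all fell among the nuclei at the S-phase angle. Xist was at 0 UMIs in wildtype replicate 4 and knockout replicates 1 and 4, the male samples.

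Of the 4 genes chosen to mark these nuclei, the replication genes separated them from the rest of cluster 4, and the progenitor genes separated all of cluster 4 from neurons. To compare nuclei at 1 depth, each nucleus was thinned to 1400 UMIs. Mcm6, a subunit of the Mcm ring, then gave a UMI in 14.2% to 18.9% of the nuclei at the S-phase angle over the 8 samples (28.6% to 32.8% before thinning), in 2.80% to 5.80% of the other cluster 4 nuclei and in 0.95% to 2.06% of cluster 1. Cdc45 gave a UMI in 9.07% to 14.3%, 3.31% to 5.80% and 0.57% to 0.99% of the same classes. Pax6, the transcription factor of cortical progenitors, gave 6.75% to 10.7%, 7.12% to 10.4% and 0.63% to 1.62%. Hes5, a Notch target that keeps progenitors undifferentiated, gave 4.83% to 9.52%, 5.03% to 9.86% and 1.54% to 3.62%. Cluster 1 served as the background class because Neurod6, an excitatory neuron gene, was detected there in 40.8% to 53.8% of thinned nuclei. Neurod6 was also detected in 20% to 34.0% of the thinned nuclei at the S-phase angle, and no class here measures the background of free RNA for this gene. All 4 markers lay above their cluster 1 level in every sample, as the label of the group requires.

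Promoters of 3 genes show the sequence context of the replication and the mitotic genes described below. Each is given 5′ to 3′ on the gene's own strand, from 250 bases before to 50 bases after the RefSeq gene start on GRCm38.p6. Capitals mark E2F-type matches (TTTCCCGC, TTTCGCGC, TTTGCCGC or TTTGGCGC, on either strand) in Mcm6 and Cdc45, and the CHR letters TTTGAA, on either strand, in Cenpf. Mcm6 (chr1:128359656-128359955, minus strand) and Cdc45 (chr16:18811923-18812222, minus strand) were shown as the 2 replication markers. Cenpf (chr1:189688037-189688336, minus strand), a kinetochore protein gene of G2 and mitosis, was chosen after its values were seen.
Mcm6: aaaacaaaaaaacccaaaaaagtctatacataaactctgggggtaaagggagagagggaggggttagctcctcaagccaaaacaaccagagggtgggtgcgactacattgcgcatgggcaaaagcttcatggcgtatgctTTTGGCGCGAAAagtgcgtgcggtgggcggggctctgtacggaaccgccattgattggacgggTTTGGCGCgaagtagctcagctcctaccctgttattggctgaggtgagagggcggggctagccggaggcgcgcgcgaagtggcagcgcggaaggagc
Cdc45: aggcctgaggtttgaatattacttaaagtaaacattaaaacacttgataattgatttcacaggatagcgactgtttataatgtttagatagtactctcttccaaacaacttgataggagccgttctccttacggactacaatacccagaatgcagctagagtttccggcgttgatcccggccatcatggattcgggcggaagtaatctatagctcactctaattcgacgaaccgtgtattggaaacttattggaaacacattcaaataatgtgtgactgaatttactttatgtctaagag
Cenpf: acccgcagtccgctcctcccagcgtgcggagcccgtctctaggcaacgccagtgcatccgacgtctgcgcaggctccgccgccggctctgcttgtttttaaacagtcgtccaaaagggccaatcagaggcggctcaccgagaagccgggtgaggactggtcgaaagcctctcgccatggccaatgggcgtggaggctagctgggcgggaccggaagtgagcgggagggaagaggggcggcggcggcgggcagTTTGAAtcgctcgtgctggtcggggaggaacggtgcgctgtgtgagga
The Mcm6 window holds 3 E2F-type matches, of which the first 2 overlap. The Cdc45 window holds none of the 4 E2F-type words, and the Cenpf window holds 1 TTTGAA. The letters TTTGAA also stand in the Cdc45 window, on either strand, where they are not marked. Among all 27025 promoters of the table, 2.32% hold an E2F-type match and 18.1% hold TTTGAA. A match is a description of the letters only.

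In wildtype, the nuclei at the S-phase angle had higher levels of the replication machinery and lower levels of the mitotic genes than the other cluster 4 nuclei, and no progenitor gene was 2-fold apart. This contrast has no test, because the angle that divides the nuclei rests on the same cell cycle genes. The other class was not spread evenly over the rest of the circle. Its fullest bins in wildtype lay just past π, with 1266 nuclei from 1 to 1.125 π and 373 from 1.125 to 1.25 π. Levels are CPM, the UMIs of a gene scaled to a common total per class, and ratios are means of log2 ratios within each of the 4 samples with their SD. Of 7672 genes at 20 CPM or more in at least 1 class, 75 (0.978%) were at least 2-fold higher at the S-phase angle with the same direction in all 4 samples, and 93 (1.21%) were at least 2-fold lower. The median gene differed by 0.00 on the log2 scale.

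Mcm6 stood at 142.0, 123.3, 118.3 and 122.9 CPM at the S-phase angle in wildtype replicates 1 to 4, and at 38.3, 26.5, 28.6 and 29.1 CPM in the other cluster 4 nuclei. Cdc45 stood at 94.1, 86.7, 87.0 and 97.5 CPM against 35.2, 40.0, 27.8 and 27.4 CPM. The log2 ratios were 2.05 ± 0.13 for Mcm6 and 1.5 ± 0.31 for Cdc45 (SD, n = 4), and the values of the 2 classes did not overlap for either gene. Among the 11 CMG helicase genes at level (including Mcm10), 8 were at least 2-fold higher and none was at least 2-fold lower, with a median log2 ratio of 1.28. Mcm4, another ring subunit, reached 2.16 and Mcm5 reached 1.91, whereas Gins1, part of the GINS complex, reached 0.64 and Mcm7 0.71. The licensing and firing factors differed less: 1 of 12 at level was at least 2-fold higher, with a median of 0.39. Orc1, the origin recognition subunit whose level cycles, stood at 2.07 ± 1.54, a ratio with a wide spread over the 4 samples, whereas Orc3 of the same complex stood at -0.58.

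The enzymes that copy the strands followed the helicase. Pola1, the catalytic subunit of the polymerase that starts new strands, averaged 486 ± 27.6 CPM against 152 ± 6.03 (log2 ratio 1.67 ± 0.06). Prim2, its primase partner, had a ratio of 1.26, Rpa1, which coats single-stranded DNA, 1.40, and Lig1, which joins Okazaki fragments, 1.92. In this list of polymerases, clamp and fork enzymes 10 of 20 genes were at least 2-fold higher, with a median of 0.99. Tyms, the thymidylate synthase, averaged 207 against 67.4 CPM, yet the nucleotide synthesis list as a whole had 2 of 11 genes at least 2-fold higher and a median of 0.59. Of the genes that rebuild chromatin and copy DNA methylation behind the fork, 7 of 11 were at least 2-fold higher (median 1.22). Hells, a remodeller needed for DNA methylation, averaged 194 against 56.2 CPM, and Dnmt1, the maintenance methyltransferase, had a ratio of 1.22. The fork checkpoint and repair list had 8 of 19 genes at least 2-fold higher (median 0.96), among them Brca1 at 1.23 and Tipin, a fork protection factor, at 1.17. Cohesin, the ring that holds sister chromatids together, had none of 11 genes past 2-fold and a median of 0.10. Of the replication-dependent histones only 2 reached the level, H1f5 (-0.08) and H2bc6 (-0.44). As background, most such transcripts lack the poly-A tail by which a 3′ method captures RNA.

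The gene with the largest ratio was Ccne2, a cyclin E that starts S phase. Its level was 41.2, 42.5, 29.2 and 30.2 CPM at the S-phase angle and 3.95, 6.76, 3.97 and 4.07 CPM in the other nuclei (log2 ratio 2.87 ± 0.31). The other cyclin E gene, Ccne1, averaged 26.9 against 5.66 CPM, and the activator E2f2 averaged 43.3 against 8.24 CPM. After Ccne2 the order of the genes named by size was Mybl2 (2.69), Pla2g4c (2.53), E2f2 (2.41), Ccne1 (2.22), Mcm4, Orc1, Mcm6, Dtl (1.93), Lig1, Mcm5 and E2f1 (1.86). The neighbours in this order differ by less than their SD over samples in most cases, so the order is not resolved. Among the 13 E2F, cyclin E and cyclin A genes 4 were at least 2-fold higher, whereas none of 7 G1 cyclins and CDK inhibitors was (median -0.14). In a published list of S-phase genes, 23 of 37 were at least 2-fold higher (median 1.13) and all 37 were higher in all 4 samples, against 19.1% of all genes at level.

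The mitotic genes mirrored this. Cenpf stood at 56.4, 60.8, 70.6 and 65.7 CPM at the S-phase angle against 241, 313, 291 and 303 CPM in the other nuclei (log2 ratio -2.17 ± 0.14). Pif1, a DNA helicase gene, had the lowest ratio at -3.47 ± 0.35 (17.2 against 188 CPM). It was followed by Fam83d (-2.79), Tuba1c (-2.34), Cenpe, a kinetochore motor (-2.28), the spindle gene Aspm (-2.25), Cdc25c, a phosphatase that starts mitosis (-2.20), Knstrn (-2.19), Cenpf, Gas2l3 (-2.17), Troap (-2.11), Kpna2 (-2.09) and Hmmr (-2.07). In a published list of G2 and mitosis genes 30 of 51 were at least 2-fold lower, none was 2-fold higher, and the median was -1.17. Top2a, the topoisomerase that untangles replicated DNA, was already at 285 CPM at the S-phase angle against 547 CPM.

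**Figure D1:**
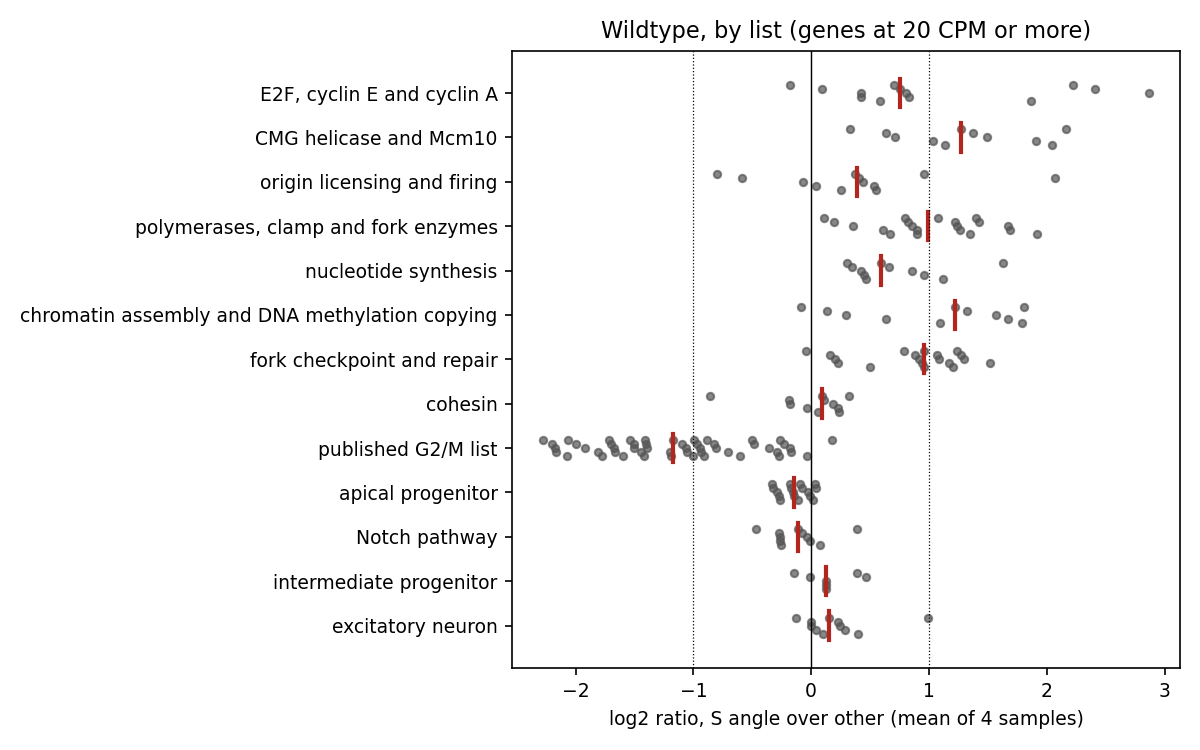
Log2 ratio of the nuclei at the S-phase angle to the other cluster 4 nuclei in wildtype for each gene at 20 CPM or more (points, mean of 4 samples), by gene list, with list medians as bars. The CMG helicase genes centre at 1.28 and the published G2/M list at -1.17, whereas the progenitor list lies near 0.

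The progenitor genes differed by less than 2-fold between the classes, several of them in 1 direction in every sample. Pax6 stood at 56.4, 54.9, 54.9 and 67.8 CPM at the S-phase angle against 66.0, 65.9, 62.7 and 68.1 CPM (log2 ratio -0.17 ± 0.11). Hes5 stood at 68.5, 59.0, 42.8 and 63.0 CPM against 69.9, 62.5, 41.3 and 61.7 CPM (-0.01 ± 0.06), so that each sample kept its own Hes5 level in both classes. Pax6 was thus lower at the S-phase angle in all 4 samples, and along the window it averaged 43.2, 45.2, 62.4 and 73.6 CPM in the 4 bins before π. None of 17 apical progenitor genes at level was 2-fold apart (median -0.14), but 7 were lower in all 4 samples and 0 were higher, against 17.8% and 19.1% of all genes at level. None of 11 Notch pathway genes was 2-fold apart (median -0.12). The highest of the progenitor genes were near equal too: Ptprz1, a receptor phosphatase of radial glia, at -0.14, Gli3 at -0.09, Slc1a3 at -0.29 and Fabp7, a fatty acid binding protein of radial glia, at -0.03. Intermediate progenitor genes (7 at level, median 0.12) and excitatory neuron genes (11 at level, median 0.15) were not 2-fold apart either. The neuron marker Rbfox3 came close: it stood at 231, 181, 334 and 228 CPM at the S-phase angle against 109, 102, 156 and 116 CPM (0.99 ± 0.13).

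The promoter letters of these gene sets differed in the same direction. An E2F-type match stood in the promoters of 18 of the 59 genes (30.5%) that were at least 2-fold higher at the S-phase angle and had a RefSeq promoter in the table, of 4 of 77 (5.19%) that were 2-fold lower, and of 4.70% of all genes at level. TTTGAA stood in 10.2% of the higher genes, in 47 of the 77 lower genes (61.0%) and in 11.5% of all genes at level. The published lists gave 36.7% with an E2F-type match for S phase and 4.26% for G2 and mitosis, and 13.3% and 68.1% with TTTGAA. The higher and lower genes were divided by an angle that rests on cell cycle genes, and they share members with these lists. The promoter shares are therefore a description, and the lists are not separate evidence. Cdc45 itself was 1 of the higher genes without an E2F-type word in this window.

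Within the window the genes did not peak together. The summed CMG helicase level in wildtype was 582 ± 111 CPM from 0.5 to 0.625 π, highest at 728 ± 66.3 CPM from 0.625 to 0.75 π, 653 ± 18.8 in the next bin and 499 ± 33.7 in the last bin before π (mean ± SD over 4 samples). Mcm6 peaked at 161 ± 14.9 CPM from 0.625 to 0.75 π, whereas Cdc45 peaked 1 bin later at 111 ± 12.1 CPM. The published S list peaked with Cdc45, at 4405 ± 245 CPM. Over the same 4 bins the G2/M list climbed from 2391 ± 327 to 3161 ± 136, 4983 ± 172 and 8107 ± 459 CPM, and beyond π it reached 12158 ± 524 CPM. Top2a moved earliest of the mitotic genes shown, from 18.0 to 544 CPM across the window, while Cenpf went from 8.8 to 125 CPM and stood at 361 CPM in the bin after π. The angle itself is computed from such genes, so these profiles describe how the window is laid out.

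**Figure D2:**
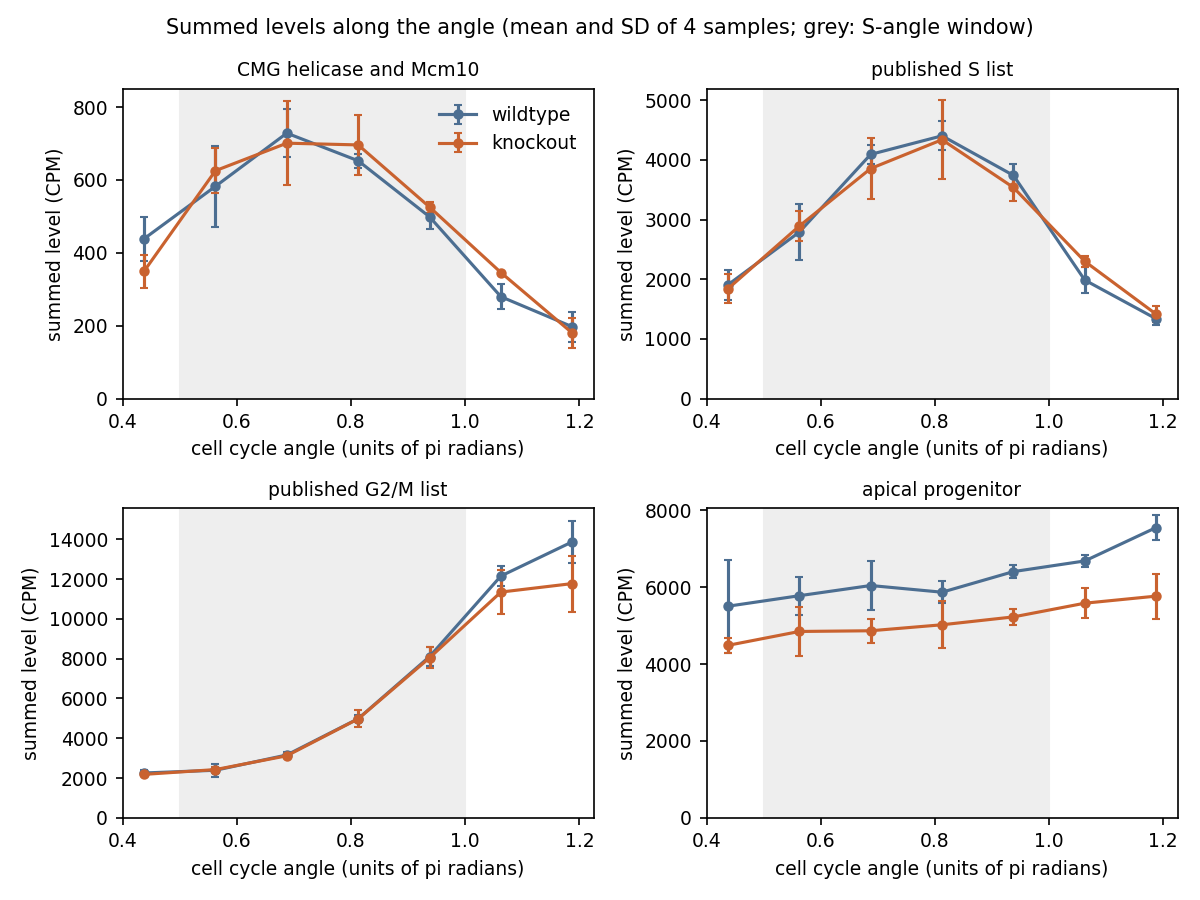
Summed level (CPM, mean and SD of 4 samples per genotype) of the CMG helicase, published S, published G2/M and apical progenitor lists along the cell cycle angle (units of π) in cluster 4, with the S-phase window shaded. The CMG curve tops between 0.625 and 0.75 π in both genotypes, and the summed apical progenitor curve of knockout runs below that of wildtype throughout the window. Over the window as a whole, 10 of the 18 tested apical progenitor genes had a higher fitted value in knockout and 8 a lower one.

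The limits of the window are not sharp steps. In wildtype the nuclei within 0.05 π just inside the lower limit (93 nuclei) had 487 ± 160 CPM of CMG transcripts, and those just outside it (69 nuclei) had 454 ± 110 CPM. At the upper limit the 322 nuclei just inside had 436 ± 43.7 CPM and the 379 just outside had 341 ± 45.9 CPM. The G2/M list stood at 8874 ± 272 and 10500 ± 477 CPM on the 2 sides of π.

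A larger share of the cluster 4 nuclei lay at the S-phase angle in knockout than in wildtype. The share was 43.7%, 47.1%, 50.1% and 49.8% in wildtype replicates 1 to 4 and 56.1%, 57.2%, 57.3% and 54.3% in knockout replicates 1 to 4. The groups did not overlap, and the difference of 8.56 percentage points (47.7% ± 2.95 against 56.2% ± 1.41, SD, n = 4 per group) gave p = 0.0286 in an exact two-sided permutation test, which is the lowest value possible for groups of this size, and 0.0429 after Benjamini-Hochberg adjustment over 3 such tests. Within the window the knockout nuclei also lay later. The share at 0.75 π or later was 56.3%, 59.9%, 57.6% and 57.1% in wildtype and 66.7%, 64.9%, 67.9% and 62.2% in knockout, a difference of 7.72 points (57.7% ± 1.53 against 65.4% ± 2.51; exact two-sided permutation p = 0.0286, adjusted 0.0429).

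The excess sat at the end of the window. From 0.875 π to π lay 14.6% of the wildtype cluster 4 nuclei (11.6% to 15.8% over samples) and 21.5% of the knockout nuclei (19.5% to 22.9%). From 0.75 to 0.875 π lay 12.9% and 15.4%, and the 2 earlier bins held 7.04% and 13.1% in wildtype against 6.01% and 13.4% in knockout. Directly past π the groups overlapped: from 1 to 1.125 π lay 26.8% of the wildtype nuclei (24.4% to 29.9%) and 25.5% of the knockout nuclei (21.7% to 28.0%). The order turned in the next bin: from 1.125 to 1.25 π lay 7.93% of the wildtype nuclei (6.95% to 8.77%) and 3.68% of the knockout nuclei (2.52% to 4.91%). With the window narrowed to 0.6 to 0.9 π the share differed by 3.25 points (exact permutation p = 0.0571). The share at 0.75 π or later went to p = 0.0571 (exact permutation) when wildtype replicate 1 or 4 was left out, with differences of 7.24 and 7.51 points.

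**Figure D3:**
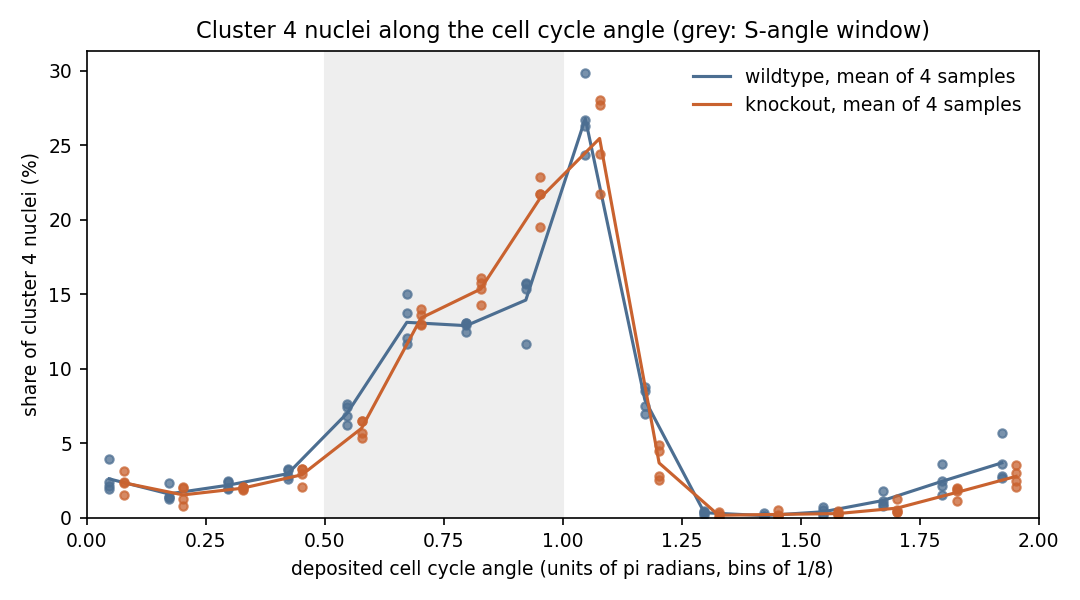
Share of cluster 4 nuclei (percent) in each bin of the cell cycle angle (units of π) for 4 wildtype and 4 knockout samples, with points for samples, lines for group means and the S-phase window shaded. From 0.875 π to π the knockout samples lie at 19.5% to 22.9%, above all wildtype samples (11.6% to 15.8%), and from 1.125 to 1.25 π the order is the reverse.

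The replication machinery itself did not pass the test between genotypes at this angle. In both genotypes the nuclei were selected by an angle that rests on cell cycle genes, which limits how far such genes can differ here. The test therefore cannot decide whether knockout changes the replication genes of progenitors. Mcm6 stood at 140, 122, 121 and 122 CPM in wildtype and 119, 124, 131 and 110 CPM in knockout (here scaled by TMM factors, which adjust for library composition). Cdc45 stood at 93.0, 86.1, 89.2 and 96.9 CPM in wildtype and 81.3, 103, 96.4 and 78.0 CPM in knockout. Both groups overlapped, with knockout minus wildtype log2 changes of -0.06 ± 0.09 for Mcm6 and -0.02 ± 0.10 for Cdc45 (SE; adjusted p = 0.830 and 0.965, edgeR quasi-likelihood test on UMIs summed per sample, Benjamini-Hochberg over 10815 genes). Of all genes tested, 304 (2.81%) passed an adjusted p of 0.05, 83 (0.767%) higher and 221 (2.04%) lower, with a median log2 change of 0.01 over all genes, and 300 (2.77%) were called with no overlap of the groups. In the 7 replication lists together, none of 103 tested genes was called in either direction by edgeR or DESeq2, their median was 0.01, and 6 had an unadjusted p under 0.05, as had 1451 of all 10815 genes. The medians were 0.03 for the 11 CMG helicase genes, 0.01 for 13 licensing and firing genes, -0.06 for 25 polymerases, clamp and fork enzymes, 0.01 for 11 nucleotide synthesis genes, -0.07 for 11 chromatin assembly genes, 0.02 for 20 checkpoint and repair genes and 0.04 for 12 cohesin genes. Pola1 had a change of -0.12, Tyms -0.18, the sliding clamp Pcna 0.12, Dnmt1 -0.07, Uhrf1, which recruits Dnmt1 to replicated DNA, -0.07, and Hells 0.13, none of them called. Ccne2 had a change of -0.15, and no gene of the E2F and cyclin E list was called (16 tested, 1 at an unadjusted p under 0.05, median 0.03). The published S list had no call either (41 tested, 2 at an unadjusted p under 0.05, median -0.04), nor had the G1 cyclins (10 tested, 3 at an unadjusted p under 0.05, median 0.09), the 7 p53 targets (0 so, median -0.09) or the 11 replication-dependent histones (1 so, median 0.25).

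Mitotic genes leaned higher in the knockout nuclei at this angle. Cenpf stood at 55.8, 60.3, 72.4 and 65.3 CPM in wildtype and 89.9, 104, 86.2 and 75.0 CPM in knockout, without overlap, and rose by 0.51 ± 0.12 on the log2 scale (SE; edgeR adjusted p = 0.0339). Cenpe stood at 52.7, 53.9, 50.4 and 65.3 CPM against 75.8, 82.1, 77.0 and 73.3 CPM and rose by 0.47 ± 0.10 (edgeR adjusted p = 0.0244). With Dlgap5, a spindle microtubule gene (0.70 ± 0.17), and G2e3, a ubiquitin ligase gene (0.41 ± 0.10), 4 of 52 tested G2/M genes were called higher, against 0.767% of all genes, and the list median was 0.22 against 0.01. Top2a (0.24; edgeR adjusted p = 0.252) and Mki67, the proliferation marker (0.30; edgeR adjusted p = 0.241), did not pass.

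The part of the later position of the knockout nuclei in these calls was not tested. In nuclei matched between genotypes on their angle within the window, none of 51 G2/M genes was called higher, the list median was 0.09, and Cenpf had a change of 0.33 (edgeR adjusted p = 0.378) and Cenpe of 0.27 (edgeR adjusted p = 0.601). The matched sums hold fewer nuclei, and among all genes they gave 44 higher (0.464%) and 130 lower calls (1.37%) of 9484. The number of G2/M genes called higher was also 0 without wildtype replicate 1, knockout replicate 2 or knockout replicate 3, and in the window from 0.6 to 0.9 π. It was 1 without wildtype replicate 3 or 4 and 2 without wildtype replicate 2.

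Pif1 and Hjurp stood apart from the other mitotic genes. Pif1 stood at 15.1, 22.3, 11.7 and 19.5 CPM in wildtype and 33.0, 38.5, 40.5 and 34.9 CPM in knockout, a rise of 1.09 ± 0.17 (SE; edgeR adjusted p = 0.00289). In the matched nuclei its change was 0.87 but no longer called (edgeR adjusted p = 0.162). Hjurp, which deposits the centromeric histone, stood at 151, 176, 159 and 158 CPM in wildtype and at 71.2, 93.1, 79.2 and 62.0 CPM in knockout. It fell by 1.06 ± 0.11 on the log2 scale (edgeR adjusted p = 1.58e-04), against the direction of the other called G2/M genes, and was called under all 15 alternative settings.

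Whether these changes differ between the S-phase angle and the rest of cluster 4 was tested with an interaction term in edgeR, with the sample as a block. Of 11072 genes 87 (0.786%) were called, 40 (0.361%) with a higher and 47 (0.424%) with a lower knockout change at the S-phase angle. The angle that divides the classes rests on cell cycle genes, and the genotypes were spread differently along it. Calls on cell cycle genes in this test cannot be told apart from that spread. The G2/M list had 12 of 53 genes called higher and none lower, with a median difference of 0.32 against 0.00 over all genes. Cenpf changed by 0.51 at the S-phase angle and by -0.26 in the other nuclei (difference 0.78 ± 0.10, edgeR adjusted p = 1.31e-05), Cenpe by 0.47 and -0.15 (0.62 ± 0.12, edgeR adjusted p = 0.00343) and Pif1 by 1.09 and -0.04 (1.11 ± 0.16, edgeR adjusted p = 8.50e-05). The replication lists leaned the other way: none of 103 genes was called higher and 4 were called lower, with a median of -0.13. These 4 were Uhrf1 (-0.57, edgeR adjusted p = 0.0372), Dnmt1 (-0.49, 0.0105), Hells (-0.42, 0.0463) and Pola1 (-0.37, 0.0129), whose changes in the other nuclei were 0.52, 0.41, 0.54 and 0.25. Among the excitatory neuron genes Rbfox3 (-0.53) and Bcl11b (-0.33) were called lower, and no apical progenitor gene of 18 was called in either direction (median 0.10).

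Fewer interaction calls were made after matching on the angle. Matching covered the nuclei at the S-phase angle only, and the other cluster 4 nuclei were left as they were. With it 5 of 10681 genes were called in the interaction, 1 higher and 4 lower, none in the G2/M list (median 0.18). The matched sums hold fewer nuclei, and among the genes named for the interaction the fitted difference was nearly as large or larger for Dipk1c (0.99), Fstl4 (-2.09), Stxbp5l (-0.91) and Synpr (-0.96). It was smaller for Pif1 (0.85), Dlgap5 (0.58), Cep89 (0.61), Nek3 (0.60), Mgat4c (-0.47) and Ryr3 (-0.55). The count fell to 14 in the narrower window, where the other class took in the rest of the S-phase window. It lay between 27 and 114 when 1 sample was left out, 27 without wildtype replicate 4 and 28 without knockout replicate 1.

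**Figure D4:**
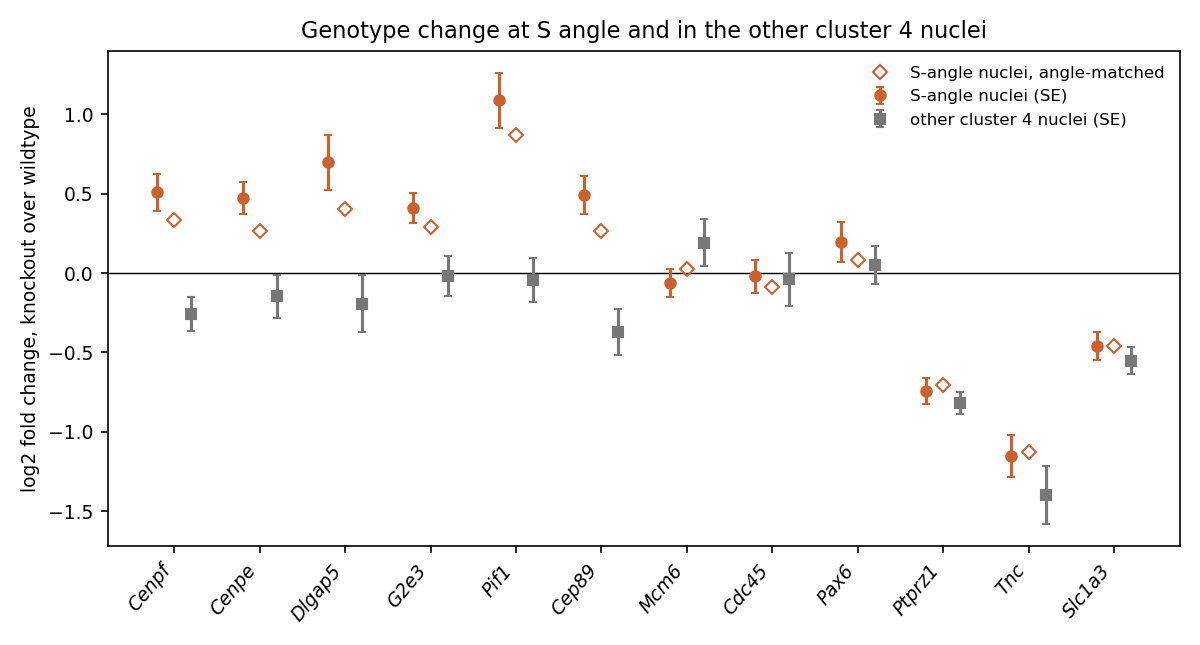
Knockout minus wildtype log2 change of 12 named genes in the nuclei at the S-phase angle (circles, SE), in angle-matched nuclei at that angle (open diamonds) and in the other cluster 4 nuclei (squares, SE). Cenpf, Cenpe and Pif1 lie above 0 at the S-phase angle only (0.51, 0.47 and 1.09, against -0.26, -0.15 and -0.04), whereas Tnc and Ptprz1 lie below 0 in all 3 sets.

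Genes of radial glia and astrocytes made up several of the largest knockout changes at the S-phase angle. Ptprz1 stood at 1496, 1432, 1485 and 1667 CPM in wildtype and 842, 883, 878 and 1037 CPM in knockout. Tnc, the matrix protein tenascin C that radial glia secrete, stood at 164, 150, 164 and 151 CPM in wildtype and 55.7, 65.8, 71.3 and 95.1 CPM in knockout. Ptprz1 fell by 0.74 ± 0.08 (SE; edgeR adjusted p = 1.94e-04) and Tnc fell by 1.15 ± 0.13 (edgeR adjusted p = 2.18e-04) on the log2 scale. Neither gene's groups overlapped, and both were called under all 15 alternative settings.

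Slc1a3, the glial glutamate transporter, stood at 831, 724, 730 and 755 CPM in wildtype and 488, 531, 565 and 635 CPM in knockout, and fell by 0.46 ± 0.09 (edgeR adjusted p = 0.0119). Fabp7 stood at 861, 762, 614 and 607 CPM against 562, 483, 403 and 450 CPM and fell by 0.58 ± 0.12 (edgeR adjusted p = 0.0232). The call was lost without wildtype replicate 1 for both (up to an edgeR adjusted p of 0.0504 for Slc1a3 and 0.0786 for Fabp7), and for Fabp7 also without wildtype replicate 2 or knockout replicate 2 or 3. Lhx2, a transcription factor of cortical progenitors, went the other way, from 176, 155, 156 and 142 CPM to 213, 217, 210 and 194 CPM, a rise of 0.41 ± 0.08 (edgeR adjusted p = 0.0168) that was lost in 6 alternatives. Thus 4 of 18 tested apical progenitor genes were called lower and 1 higher, against 2.04% and 0.767% of all genes, with a list median of 0.02, and the progenitor list sum was 5711 to 6296 CPM in wildtype and 4614 to 5365 CPM in knockout. Without wildtype replicate 1 the list had 2 genes called lower.

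The 2 progenitor genes that mark these nuclei were not called. Pax6 stood at 55.8, 54.5, 56.3 and 67.4 CPM in wildtype and 55.4, 73.1, 78.3 and 60.8 CPM in knockout (0.19 ± 0.13, SE; edgeR adjusted p = 0.563), with overlap. Hes5 stood at 67.7, 58.6, 43.9 and 62.6 CPM against 49.4, 42.6, 44.9 and 40.8 CPM (-0.40 ± 0.13; edgeR adjusted p = 0.160), with overlap through wildtype replicate 3. Without that replicate Hes5 was called (edgeR adjusted p = 0.0403). Of the Notch pathway 1 of 13 tested genes was called: Jag1, a Notch ligand, stood at 36.3, 46.3, 38.0 and 43.7 CPM in wildtype and 21.5, 18.3, 22.4 and 27.8 CPM in knockout, and fell by 0.90 ± 0.15 (edgeR adjusted p = 0.00403). The Jag1 call was lost in angle-matched nuclei, which hold fewer nuclei, with a change of -0.82 (edgeR adjusted p = 0.0527). The median of the Notch list was -0.03.

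Several genes known from astrocytes fell by over 1 on the log2 scale. A list of 31 astroglial genes was drawn up after the calls were seen, so its counts describe these samples only. Of its 25 tested genes 12 were called lower and 2 higher, against 2.04% and 0.767% of all genes, with a median log2 change of -0.58. The 12 include Slc1a3, Fabp7, Tnc and Ptprz1, which were also counted in the apical progenitor list. Hepacam, an adhesion molecule of astrocytes, stood at 26.1, 17.0, 13.2 and 18.4 CPM in wildtype and 4.0, 3.4, 4.0 and 6.5 CPM in knockout, and fell by 2.17 ± 0.27 (SE; edgeR adjusted p = 4.37e-04). Slco1c1, a thyroid hormone transporter, stood at 76.6, 63.2, 73.1 and 93.7 CPM against 17.2, 14.6, 14.5 and 33.1 CPM and fell by 2.04 ± 0.21 (edgeR adjusted p = 1.41e-04). Slc6a11, a GABA transporter, stood at 29.7, 31.0, 27.0 and 43.2 CPM against 6.0, 10.2, 4.8 and 11.8 CPM and fell by 2.01 ± 0.24 (edgeR adjusted p = 3.90e-04). For all 3 genes every knockout sample lay below every wildtype sample.

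The same held for Aldh1l1, a folate enzyme used as an astrocyte marker, at 25.7, 29.3, 19.7 and 27.9 CPM in wildtype and 4.0, 10.2, 7.9 and 4.1 CPM in knockout (-1.90 ± 0.26, edgeR adjusted p = 0.00115). Slc1a2, the second glial glutamate transporter, stood at 158, 84.3, 148 and 112 CPM against 56.3, 45.1, 60.7 and 65.0 CPM (-1.17 ± 0.18, edgeR adjusted p = 0.00232). Egfr, the epidermal growth factor receptor, fell by 1.63 ± 0.19, Sparcl1 fell by 1.73 ± 0.18 and Mlc1 fell by 0.71. Nfia, a transcription factor that promotes gliogenesis, went up instead, from 2968, 2888, 3116 and 2857 CPM to 3784, 3951, 3681 and 3686 CPM (0.35 ± 0.06, edgeR adjusted p = 0.00798). Nfib, its relative, rose by 0.32 ± 0.07 (3647 ± 312 against 4553 ± 50.4 CPM; edgeR adjusted p = 0.0292, lost in 6 alternatives). Sums over nuclei do not tell fewer expressing nuclei from less RNA per nucleus.

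**Figure D5:**
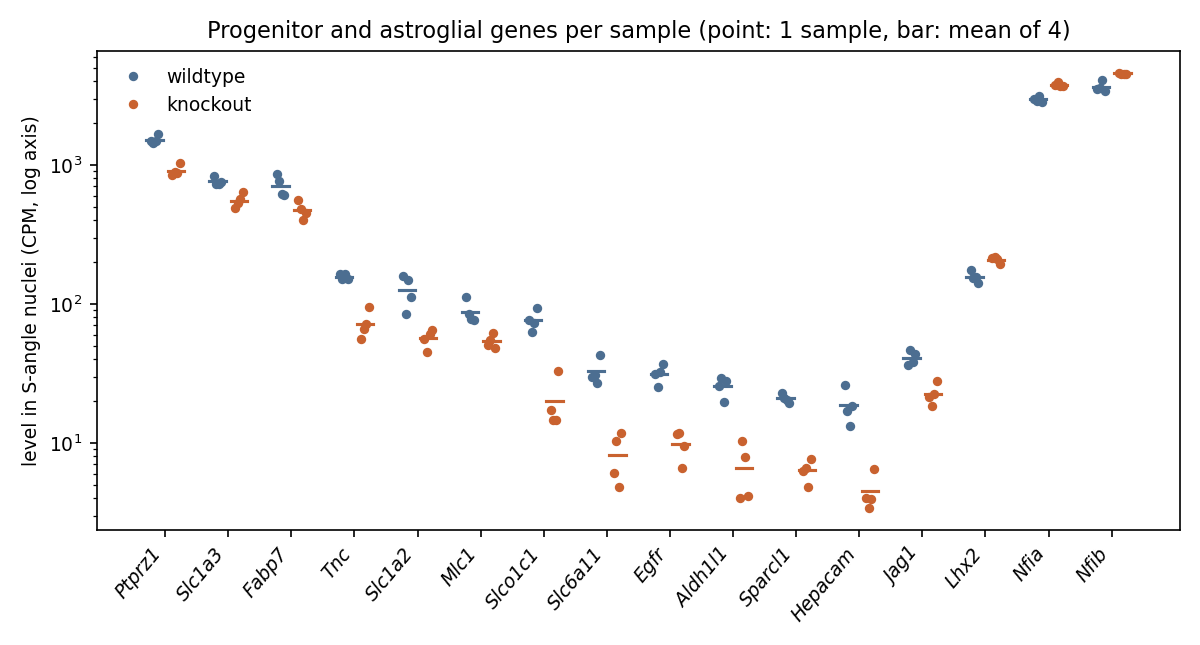
Level (CPM, log axis) of 16 named genes in the nuclei at the S-phase angle, with 1 point per sample and a bar at the mean for wildtype and knockout. Hepacam, Slco1c1 and Slc6a11 lie lower in every knockout sample than in any wildtype sample, whereas Nfia lies higher.

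The glial calls were made in angle-matched nuclei too. In the angle-matched nuclei 11 astroglial genes were called lower and 2 higher, Tnc had a change of -1.13 and Ptprz1 of -0.70. Over the 15 alternatives 10 to 12 genes of the list were called lower. The interaction test called none of the 25 genes (median difference 0.08), and in the other cluster 4 nuclei Tnc had a change of -1.40. No difference in the glial changes between the 2 classes of nuclei was thus called.

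Transcripts of other cell types differed beside these genes. The summed interneuron markers stood at 195 to 259 CPM in wildtype and 56.2 to 196 CPM in knockout. All 7 tested had a lower fitted value in knockout (median -1.24), none was called by edgeR or DESeq2 and 5 had an unadjusted p under 0.05. In the angle-matched nuclei 2 of 4 tested interneuron markers were called lower by edgeR. Oligodendrocyte precursor markers summed to 11.7 to 14.8 CPM against 2.3 to 4.2 CPM, endothelial and mural markers to 36.3 to 43.7 against 13.8 to 24.7 CPM, and microglia markers to 8.8 to 15.2 against 6.5 to 10.9 CPM. Choroid plexus and meninges markers summed to 10.3 to 125 CPM against 6.1 to 16.2 CPM with Clic6 at 0 in knockout, and Cajal-Retzius markers to 14.7 to 29.1 against 18.4 to 64.5 CPM with Lhx1 at 0 in wildtype. Pdgfrb, a pericyte gene, fell by 1.25 (edgeR adjusted p = 0.0326, lost in 6 alternatives). The red blood cell gene Hbb-y stood at 1.8, 7.0, 5.8 and 3.2 CPM in wildtype and 34.5, 20.7, 21.1 and 10.6 CPM in knockout and rose by 2.42 ± 0.41 (edgeR adjusted p = 0.00453), while the red blood cell sum was 322 to 562 against 223 to 434 CPM. The part of these cell types in the glial changes was not tested.

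Excitatory neuron genes gave 2 calls among 11, both higher, against 0.767% of all genes (median 0.17). Neurod6 stood at 162, 191, 212 and 187 CPM in wildtype and 279, 253, 253 and 302 CPM in knockout and rose by 0.53 ± 0.09 (SE; edgeR adjusted p = 0.0069). Fezf2, a transcription factor of deep-layer neurons also present in progenitors, stood at 48.3, 46.3, 52.6 and 50.5 CPM against 76.7, 67.5, 71.3 and 55.5 CPM (0.47 ± 0.11, edgeR adjusted p = 0.0410) and lost the call in 11 alternatives. Neurod6 also gave a UMI more often in the thinned neurons of cluster 1 in knockout, in 49.8% to 53.8% of nuclei against 40.8% to 42.1% in wildtype. Its part in the Neurod6 level at the S-phase angle was not tested. No intermediate progenitor gene was called (7 tested, none at an unadjusted p under 0.05, median 0.12; none by DESeq2), nor was any of 7 genes near the Pantr2 locus (none at an unadjusted p under 0.05, median 0.03; none by DESeq2).

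Many of the genes with the largest changes have near-identical copies, so their values are uncertain. Among the 20 named by size, 11 share at least 100 bases at 95% identity or more with another gene. Gm28438 had 0 UMIs in wildtype and 2190 in knockout (141, 169, 312 and 175 CPM), at least 450-fold higher against a floor of 3 UMIs over the group. Its transcript matches the mitochondrial gene mt-Nd3 over 345 bases at 99.7% identity, and mt-Nd3 fell from 75.3, 139, 165 and 302 CPM to 0.6, 1.9, 1.3 and 4.7 CPM (-6.49 ± 0.53). The pair is given as one uncertain locus set, since reads may have been assigned to either gene. Tpm3-rs7, which matches Tpm3 at 99.1%, had 3 UMIs in wildtype and 410 in knockout, a ratio of 84.3 with a counting interval of 28.6 to 410. A430010J10Rik had a ratio of 27.5 (9.23 to 135). Gm9347 (at least 23.0-fold higher), Gm49450 (3.51), 4930578M01Rik (2.44), Gm13307 (-4.37), Gm17167 (-2.86), Mcmdc2 (-2.25) and Bmp6 (-1.99) also have such copies. Gm49450 overlaps Tuba1b, Mcmdc2 overlaps Snhg6 and Bmp6 overlaps Txndc5.

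Among the named genes without such a copy, C1ql4, a secreted C1q-like protein gene, had 0 UMIs in wildtype and 106 in knockout, at least 21.8-fold higher. Gm6209 had 3 UMIs in wildtype and 302 in knockout, a ratio of 62.1 (21.0 to 303). Dnajc22, a chaperone gene, averaged 1.55 ± 1.29 CPM in wildtype and 49.3 ± 5.76 CPM in knockout (4.86 ± 0.29, SE), and Gm49200 had a change of 2.43. Afap1l2 fell by 2.41, Adhfe1 fell by 2.06, and Hepacam, Slco1c1 and Slc6a11 complete the list. Of the 20 named genes 19 were called under every alternative that tested them, and Gm49200 was not without wildtype replicate 1 (edgeR adjusted p = 0.0724). In the deposited gene table, which names no build, Hepacam spans 37278647 to 37297871 on chromosome 9, Slco1c1 spans 141470094 to 141515903 and Slc6a11 114108202 to 114226913 on chromosome 6.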

How the data were processed

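Nuclei of 4 wildtype and 4 Pantr2 knockout samples were grouped by the labels. The authors deposited whole-number UMI counts per gene and nucleus, not normalised, per the file headers. The submitters' processing notes name kallisto, bustools and mm10, with no role given. The deposited cell cycle angle and doublet score are scores made by the authors, per the file headers, and no doublet score exceeds 0.5. Cluster numbers are the authors' own. The members and gene lists were chosen with earlier results of these data known. Filters on nuclei are not given in the sources used here, and every deposited nucleus held at least 1496 UMIs.

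UMIs were summed per sample over the nuclei at the S-phase angle and tested with edgeR 4.0.16 in R 4.3.3 (TMM, filterByExpr, quasi-likelihood test, Benjamini-Hochberg over all genes, threshold 0.05), with genotype as the term. The interaction used the sums of both angle classes with sample as a block. Shares were compared with exact permutation tests over 70 arrangements (scipy 1.17.1). The wildtype contrast used log2 ratios with a prior of 0.5 UMI. Intervals and floors cover counting error only. Tested on simulated data, the genotype test recovered 88% of 200 genes changed by 1 on the log2 scale among 10683 genes, and the interaction test 57% among 10518. False calls numbered 6 and 4. The simulation gave every gene the same dispersion and no sample effect shared between classes, so these rates may not hold for the real counts. Replicate numbers are shared between groups, but same-numbered samples did not deviate together (correlations 0.0703, 0.162, -0.160 and 0.0555 over 7421 genes, with 0.1 as the threshold for pairing).

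Named genes were the 10 called genes with the largest change in each direction without overlap of the groups and with at least 10 UMIs per sample in 1 group, up to 5 in each direction for the interaction, 12 in each direction for the wildtype contrast, the 4 markers, and the highest and the called genes of each list. Alternatives were DESeq2 1.42.0 and its size factors, no filter on low counts, a narrower window, leaving out each sample, the replicate block and sex. Angle-matched nuclei were added after seeing the data. Copies were found with blastn 2.17.0. Promoter and gene names come from RefSeq tables on GRCm38.p6. Positions from the deposited gene table differ from that build and were not mixed with it.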

Additional observations from a re-analysis of the deposited data

Results flagged for a closer look

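In 100 groups of 4 samples checked, 3 had 1 sample far from the other three, and chance alone marks about 1 in 20 such groups. Knockout replicate 4 had 33.1 CPM of Slco1c1 when the other knockout samples had 14.5 to 17.2 CPM. Wildtype replicate 4 had 67.4 CPM of Pax6, against 54.5 to 56.3 CPM in the other wildtype samples. Wildtype replicate 1 had 140 CPM of Mcm6, against 121 to 122 CPM.

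For 10 named genes the knockout change differed between the nuclei at the S-phase angle and the other cluster 4 nuclei by the interaction test in edgeR. The log2 difference was higher at the S-phase angle for Pif1 (1.11), Dipk1c (0.90), Dlgap5 (0.89), the centrosome gene Cep89 (0.86) and the kinase gene Nek3 (0.85). It was lower for Fstl4 (-1.64), the vesicle fusion gene Stxbp5l (-0.92), Mgat4c (-0.89), the synaptic vesicle gene Synpr (-0.86) and Ryr3, a calcium release channel (-0.83). With the window from 0.6 to 0.9 π, the other class also held the nuclei at the S-phase angle that lay outside it. All 10 calls were lost in this window and in angle-matched nuclei. Of 14 alternatives, the calls on Pif1, Cep89 and Synpr were lost in these 2 alone, that on Dlgap5 in 4, Nek3 in 5, Ryr3 in 6, Mgat4c in 7, Dipk1c and Fstl4 in 8 and Stxbp5l in 10.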

How the results depend on the processing

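The count of 304 called genes ranged from 163 (without wildtype replicate 1) to 350 when 1 sample was left out, with 202 and 200 without wildtype replicates 2 and 4 and 186 without knockout replicate 2. It was 174 in angle-matched nuclei, which hold fewer nuclei by construction, and 263 with the replicate block, where 0 of 52 G2/M genes were called higher in place of 4. Of the 87 interaction calls 27 to 114 were counted when 1 sample was left out, with 50, 56 and 27 without wildtype replicates 2, 3 and 4 and 28 and 56 without knockout replicates 1 and 4. The interaction count was 14 in the window from 0.6 to 0.9 π, 52 with sex, 131 with the replicate block and 5 in angle-matched nuclei. In the wildtype contrast a fold of 1.5 gave 463 genes in place of 168. The share at the S-phase angle differed by 3.25 points in the narrower window and by 7.24 to 9.35 points when 1 sample was left out. The share at 0.75 π or later differed by 6.89 to 8.80 points in those fits, 7.24 without wildtype replicate 1 and 7.51 without wildtype replicate 4. With the replicate block (an exact sign-flip test of same-number differences) both shares, at 8.56 and 7.72 points, had an exact p of 0.125, the smallest that 4 pairs allow. Not every sample correlated best with its own number.

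The small Mcm6 change turned to 0.0235 in angle-matched nuclei. That of Cdc45 turned to 0.0419 in the narrower window, 0.00798 without wildtype replicate 4, 0.0249 and 0.0268 without knockout replicates 1 and 4, and 0.00565 with sex; over all fits that left out 1 sample it ran from -0.106 to 0.0268. No cause was tested. Among values of named genes in the genotype contrast 612 kept their direction and side of the threshold, 84 lost the call, 1 gained it and 6 reversed. For the interaction 86 kept it and 54 lost the call. DESeq2 gave 307 genotype calls. Depth limits genes under about 10 UMIs per sample.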

Other observations

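Some gene families that the lists did not hold were gathered after their values were seen, so their counts describe these samples only; of all genes tested 0.767% were called higher and 2.04% lower. All 3 tested Foxp transcription factors rose in the knockout nuclei at the S-phase angle: Foxp1 by 0.61 ± 0.08 on the log2 scale (SE; 337 ± 13.7 against 515 ± 42.2 CPM, SD, n = 4 per group; edgeR adjusted p = 4.76e-04), Foxp4 by 0.56 and Foxp2 by 0.32. Of 10 tested FGF receptor and feedback genes 2 fell, Spry2, an inhibitor of receptor signalling, by 1.87 ± 0.29 (edgeR adjusted p = 0.00248), and Etv4, a transcription factor downstream of FGF, by 1.24 ± 0.24 (edgeR adjusted p = 0.0115), with a family median of -0.14. Ptch1, the Hedgehog receptor and a target of its own pathway, fell by 1.02 ± 0.12 (85.7 ± 11.4 against 41.7 ± 5.64 CPM; edgeR adjusted p = 3.86e-04). Its coreceptor Cdon rose by 0.32, and the other 5 of 7 tested Hedgehog genes were not called (median 0.04). These changes were not particular to the S-phase angle. In the other cluster 4 nuclei Foxp1 changed by 0.67, Foxp4 by 0.84, Foxp2 by 0.38 and Cdon by 0.30. Spry2 changed there by -1.73, Etv4 by -1.66 and Ptch1 by -1.27, and the interaction test called none of these genes.

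On chromosome 15 all 7 tested genes of a stretch from 98830018 to 99111096 (281 kb, positions as in the deposited gene table, which names no build) were called higher in knockout. They were Gm49450, 4930578M01Rik, Tuba1c (1.98), Troap (1.92), C1ql4, Dnajc22 and Spats2 (1.07; 173 against 363 CPM). Tuba1c and Troap are also among the genes that were lower at the S-phase angle in wildtype. The stretch was chosen after its values were seen.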
